A study of Arabidopsis thaliana with 51 samples.

Results

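Cotyledons of Arabidopsis thaliana, the thale cress, were compared in light and in the dark on 7 of the 51 two-colour arrays of a series on plant organs. The 7 arrays were taken by their labels. On 2 direct arrays, RNA of cotyledons labelled light was in channel 1 and RNA of cotyledons labelled dark was in channel 2 of the same array. The other 5 arrays set light cotyledons (2 arrays) or dark cotyledons (3 arrays) in channel 2 against RNA of cultured cells in channel 1, a reference that the series used for all its organs. The age of the seedlings, the strain, the light source, the length of the dark period and the kind of cultured cell are not given in the sources used here, so it is unknown whether the dark cotyledons had ever been in light. The labels say neither that arrays of a group came from separate plants nor that direct arrays and reference arrays used separate RNA, so the p-values cover array-to-array spread, possibly technical alone. Each array gives ratios, and fewer cells of a type cannot be told apart from less RNA of a gene per cell.

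Cotyledons are the seed leaves. They carry oil and protein laid down in the seed, and in light they become green organs that fix carbon. The light reactions of photosynthesis run in photosystem I and photosystem II, which take up energy through chlorophyll proteins of the antenna, and a chloroplast ATP synthase that uses the proton gradient they build. The last steps of chlorophyll synthesis in flowering plants need light, and shoots kept in the dark turn on genes that break down amino acids and other cell material when sugar runs short.

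Light against dark could be measured by both routes: as the mean ratio of the 2 direct arrays, and as the mean of the 2 light arrays minus the mean of the 3 dark arrays, in which the cultured cells and the dye cancel. On the direct arrays the dyes were not swapped, so a dye effect stays in the ratio. All values below are log2 ratios with every array's median set to 0, so that a change of 1 is 2-fold. A probe was called when its adjusted p in limma was under 0.05 and its change was at least 2-fold, and a gene was counted for both routes when it was called in each with the same sign. The 7 arrays held between 24911 and 26548 values each. The number of arrays limits the precision, and the median standard error of a change was 0.487 by the direct route and 0.621 through the reference.

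The direct arrays correlated with each other at 0.619 across probes and the light arrays with each other at 0.878. Dark replicate 1 stood apart: it correlated at 0.745 and 0.747 with the other dark arrays, which correlated at 0.937 with each other. The mean of the direct arrays correlated at 0.619 with the difference between light and dark arrays over 22827 probes, which are not independent of each other. Since the organ and the light RNA lie in opposite channels in these sets of arrays, that positive sign means that the deposited ratios follow the wording of the labels, light over dark and cotyledon over cultured cells, or the reverse of both. The first is likely but not known: in rosette leaf, the 8 measured genes of the light reactions had ratios over cultured cells from 1.36 for PSB27 to 10.1 for LHB1B2. The leaf was in channel 1 on those arrays and the cotyledons in channel 2, so the leaf does not settle the direction of the cotyledon ratios. Read as cotyledon over cultured cells, 8 of the 9 light-reaction genes measured in cotyledon lay above cultured cells on every cotyledon array with a value. They ran from LHB1B2, at 7.52 and 8.26 on the light arrays and 7.16, 6.86 and 7.02 on the dark arrays, to PSB27. PSB27 stood at 0.48 and 0.62 in light and 1.82, 1.16 and 1.14 in the dark. LHCB4.3 was the exception, above cultured cells on the light arrays and below them on the dark arrays.

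More probes were called higher than lower in light by either route, a balance that for the direct arrays turned under other centrings of the arrays. By the direct route 2946 of 25907 probes were called (11.4%), of which 1698 were higher (6.55%) and 1248 lower (4.82%) in light. Through the reference 2045 of 25314 probes were called (8.08%), with 1242 higher (4.91%) and 803 lower (3.17%). Both routes together called 1348 of 24591 probes (5.48%), 912 of them higher (3.71%) and 436 lower (1.77%). These shared probes were 47.4% of the direct calls and 66.3% of the calls through the reference that both routes tested. With dark replicate 1 left out, the reference route called 1833 probes and both routes together called 1264, of which 894 were higher and 370 lower. Leaving out a single array of the small groups lowered the counts. The direct count was 1764 without direct replicate 1 and 1605 without direct replicate 2. The reference count was 1068 without light replicate 1 and 1128 without light replicate 2. The shared count was 869 without direct replicate 2, 777 without light replicate 1 and 857 without light replicate 2. Of the direct calls 57.6% were higher in light after median centring, 43.5% without centring and 41.3% when arrays were centred on their named probes. Of the shared calls 67.7%, 57.8% and 56.5% were higher under these settings.

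**Figure D1:**
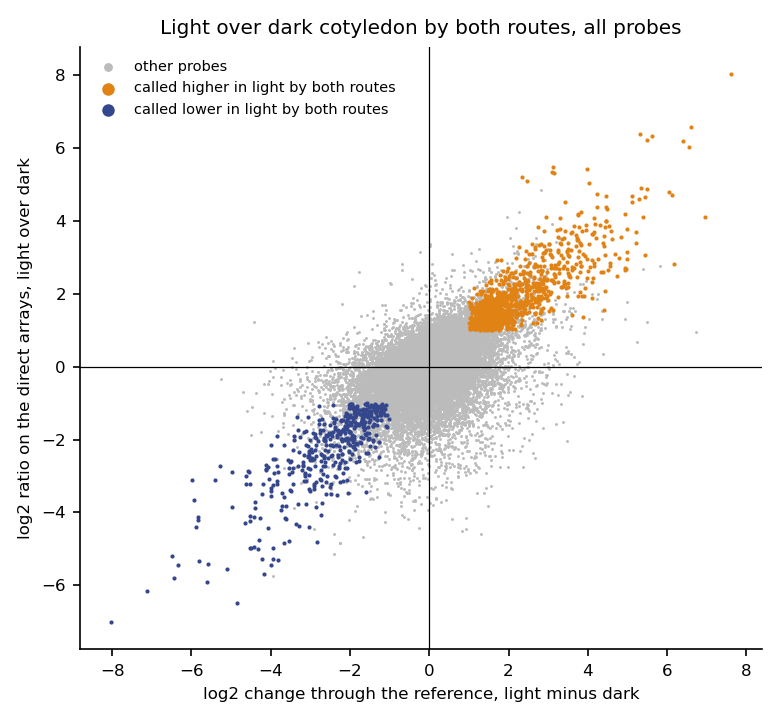
Log2 change in light over dark cotyledon for every probe tested in both routes, through the cultured-cell reference (x axis, mean of 2 light arrays minus mean of 3 dark arrays) and on the direct arrays (y axis, mean of 2 arrays). The 912 probes called higher and the 436 called lower by both routes lie along the diagonal. The 733 lower direct calls that were not repeated had a median of -2.1 on the direct arrays and -0.67 through the reference.

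Calls made by the direct arrays were repeated less often when they were lower. Of 1677 direct calls higher in light that the reference route tested, 54.4% were called in both, and of 1169 direct calls lower in light, 37.3%. The 733 lower direct calls that were not repeated had a median change of -2.1 on the direct arrays and -0.67 through the reference. The 765 higher direct calls that were not repeated had medians of 1.38 and 0.86. On the direct root arrays, which carried the light RNA in the same channel, 10.7% of 675 of the unrepeated lower probes were called lower, with a median of -0.42, against 4.31% of all probes tested there. Of 754 unrepeated higher probes, 16% were called higher there, with a median of 0.45, against 4.81% of all. The part of the dyes in this was not tested, nor was that of each probe's spread, which the fit shares between all comparisons. A direct test of the difference between the routes called 1 of 24591 probes (0.00407%), while 1493 had an unadjusted p under 0.05. That probe, 3244173, has no gene name here. It had ratios of -2.39 and -2.76 on the direct arrays, of -3.64 and -3.69 on the light arrays, and of -3.22, -3.16 and -3.25 on the dark arrays, so that the routes differed by -2.12 ± 0.32 (SE, adjusted p = 0.0038, limma). Probe 3235795, also unnamed, was called with opposite signs, -1.84 on the direct arrays and 2.60 through the reference.

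Gene names were known for 1773 genes, of which 1684 were tested in both routes. Of these, 109 were called higher in light (6.47%) and 36 lower (2.14%), 8.61% in all, and 387 of the tested genes carry a symbol other than a locus code, of which 28 were called higher and 10 lower. Among the 109, the change ran from 1.01 to 4.87 on the direct arrays with a median of 1.71, and from 1.03 to 6.12 through the reference with a median of 1.79. Among the 36, the direct median was -1.77 and the reference median -1.92. Over all named genes the medians were 0.18 and 0.06. Light and dark arrays did not overlap for any gene called by both routes, 109 of 109 higher and 36 of 36 lower, so a lack of overlap in such a gene adds nothing to its call. Without dark replicate 1, 108 named genes were higher and 29 lower, and without light replicate 1, 56 were higher and 23 lower. Of 61 named genes called by both routes for which this was run, 25 kept the calls of the affected route whichever array was left out, where that could be tested, and 36 lost a call without at least 1 array. Those that lost a call of the affected route without each of 3 or more arrays in turn were ALN, AR781, AT4G36430, BCAT4, CcdA, DRT100, FUG1, GI, GSTU26, LHCB4.3, MAP1D, OPCL1, SIR, TPI and UGT76C2. Losses of a call by the other route are not counted here. KIN2, given below, also lost its call by both routes without either light array.

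Of 9 measured genes of the light reactions, 3 were called higher in light cotyledons by both routes and none lower. The direct arrays called 5 of them higher, against 10.4% of all named genes called higher there, and the reference called 3, against 8.25% of all named genes. The list had a median change of 2.34 on the direct arrays and 1.67 through the reference. PSAN, a small subunit of photosystem I at the site where plastocyanin docks, changed most. Its ratios were 2.77 and 3.13 on the direct arrays, and 7.74 and 7.93 on the light arrays, against 3.04, 3.84 and 3.83 on the dark arrays. Every light value lay above every dark value, and the change was 2.95 ± 0.30 by the direct route and 4.26 ± 0.38 through the reference (SE, adjusted p = 6.9e-09 and 2.2e-09, limma). In 3 rosette leaf arrays PSAN stood at 8.41 ± 0.23 over cultured cells (SD), and in roots it lay between -0.52 and -0.06.

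LHCB4.1 and LHCB4.3 encode minor antenna proteins of photosystem II, in the family also called CP29. LHCB4.1 had direct ratios of 2.05 and 1.87, and stood at 5.16 and 4.41 on the light arrays, against 3.85, 2.70 and 2.55 on the dark arrays. A second probe of LHCB4.1 gave 2.13 ± 0.23 and 2.08 ± 0.29 by the direct route and through the reference, beside 1.96 ± 0.31 and 1.75 ± 0.40 for the first (SE). LHCB4.3 had direct ratios of 3.02 and 2.83, and stood at 0.97 and 1.19 on the light arrays, against -1.05, -0.41 and -0.46 on the dark arrays. In none of these sets did light and dark arrays overlap.

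Other members were called on the direct arrays alone or not at all. LHB1B2, a major antenna protein of photosystem II, changed by 2.60 ± 0.49 on the direct arrays (SE, adjusted p = 0.00022) and by 0.87 ± 0.63 through the reference (adjusted p = 0.53, limma). In root LHB1B2 was called higher in light by both routes, at 2.72 ± 0.49 and 2.93 ± 0.69 (SE, adjusted p = 0.00025 and 0.0077, limma). No other gene of the list was called in root, where ATPC1 was not tested through the reference. ATPC1, the gamma subunit of the chloroplast ATP synthase, changed by 2.46 ± 0.55 and 1.41 ± 0.70 (SE, adjusted p = 0.002 and 0.28, limma), and its light values of 8.90 and 7.85 overlapped its dark values of 5.67, 7.15 and 8.07. PSAE-1 of photosystem I had direct ratios of 2.42 and 2.27, but dark replicate 2, at a log2 ratio of 10, lay above both light arrays, at 9.93 and 9.26, and neither route called it. PSBY, a small photosystem II subunit with no value on dark replicate 1, was not called at 2.33 and 2.24, nor was LHCB4.2 at 1.06 and 0.92. PSB27, which binds photosystem II during its assembly and repair, had negative changes of -0.21 and -0.83 that did not pass the test. Without dark replicate 1, 2 of the 9 genes were called by both routes, and without light replicate 1, 1 of them was.

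**Figure D2:**
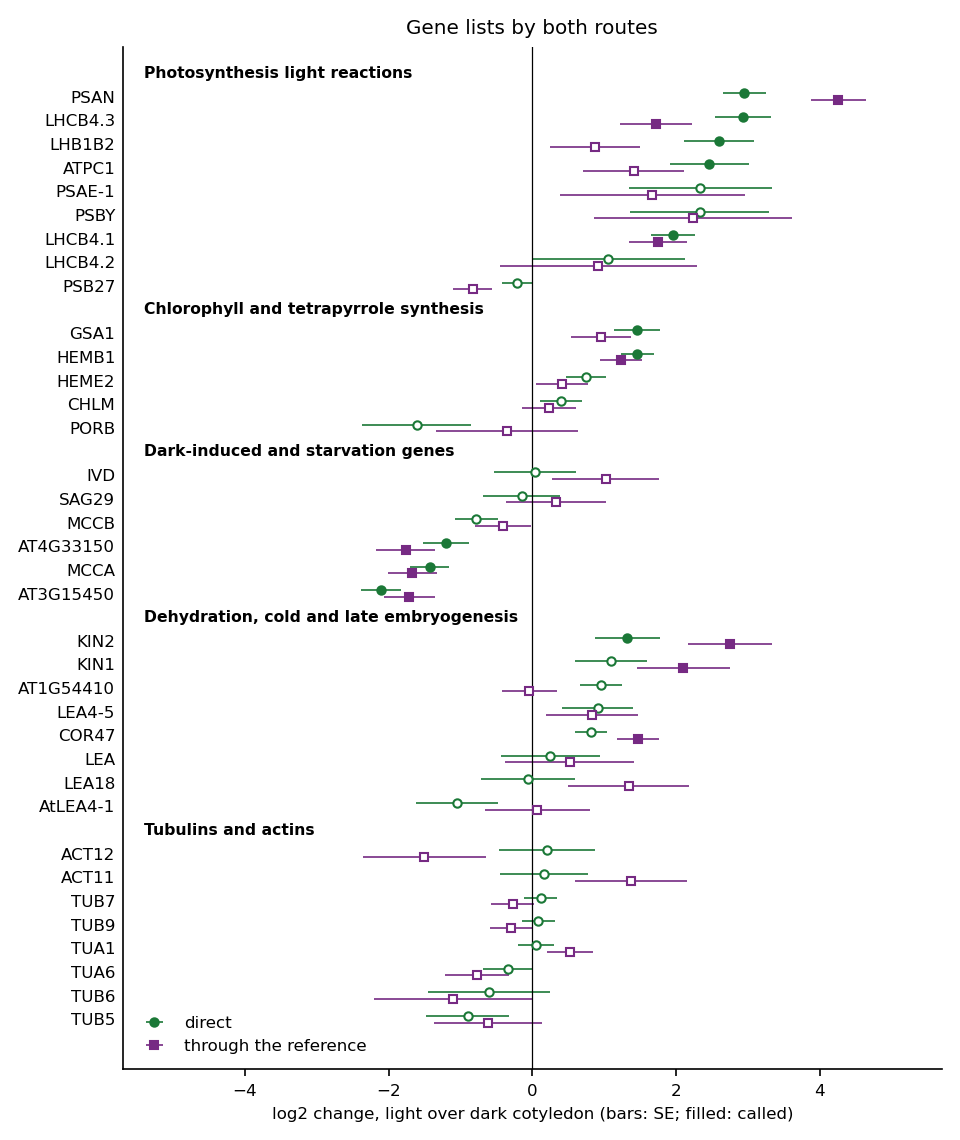
Log2 change in light over dark cotyledon of every measured gene of 5 lists by the direct route (green circles) and through the reference (purple squares), with bars of 1 SE and filled points for calls. Light-reaction genes lie mostly to the right of 0, 3 dark-induced genes were called lower by both routes, and no tubulin or actin gene was called.

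Among 5 measured genes of chlorophyll synthesis and of the early tetrapyrrole route that it shares with haem, 1 was called higher by both routes. Of all named genes tested, 6.47% were. HEMB1, which joins aminolevulinic acid into porphobilinogen, had direct ratios of 1.20 and 1.72 and stood at 0.80 and 0.68 on the light arrays, against -0.12, -0.62 and -0.74 on the dark arrays. Its call through the reference was lost without light replicate 1 (adjusted p = 0.075, limma) and when the cotyledon arrays were fitted alone (adjusted p = 0.079, limma). GSA1, the step before it, changed by 1.46 ± 0.32 on the direct arrays (SE, adjusted p = 0.0013) and 0.96 ± 0.42 through the reference (adjusted p = 0.18, limma). HEME2 and CHLM, which act later, were not called, at 0.75 and 0.40 on the direct arrays and 0.41 and 0.23 through the reference. PORB, the enzyme that needs light to reduce protochlorophyllide, was not called at -1.61 ± 0.76 and -0.35 ± 0.99 (SE), with 5.41 on dark replicate 1 below the light values of 6.57 and 6.32 and the other dark values of 7.59 and 7.41 above them. No Calvin cycle gene and no ribosomal protein gene of the lists had a named probe.

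Other chloroplast and photosynthetic carbon genes were called higher by both routes. They were put together here after their values were seen, so their number supports nothing. HPR, the peroxisomal hydroxypyruvate reductase of photorespiration and the one measured gene of that list, had direct ratios of 2.64 and 2.80, and 6.60 and 7.21 on the light arrays, against 3.69, 3.51 and 3.43 on the dark arrays. The call was lost without direct replicate 2 or without light replicate 2. The chloroplast thioredoxins THX and ATHM2, which pass electrons from the light reactions to enzymes, changed by 2.28 ± 0.28 and 2.1 ± 0.25 on the direct arrays and by 2.33 ± 0.36 and 2.22 ± 0.32 through the reference (SE). TAPX, the ascorbate peroxidase of the thylakoid that removes hydrogen peroxide, changed by 2.27 ± 0.43 and 2.86 ± 0.55.

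Genes of chloroplast division, assembly and translation and the cytosolic TPI were called as well, also grouped after their values were seen. FTSZ2-1, a tubulin-like protein of plastid division, changed by 1.70 ± 0.31 on the direct arrays and 1.46 ± 0.40 through the reference (SE). CcdA, a thylakoid protein that carries reducing power across the membrane, changed by 1.15 ± 0.24 and 1.15 ± 0.31. FUG1, the chloroplast translation initiation factor, changed by 1.09 ± 0.21 and 1.07 ± 0.28. TPI, the cytosolic triose phosphate isomerase that works on the sugar phosphates leaving the chloroplast, changed by 1.63 ± 0.28 and 1.24 ± 0.36.

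Genes of glucosinolate and sulfur metabolism were also higher, again grouped after their values were seen. Glucosinolates are sulfur-containing defence compounds of the cabbage family. GTR1, a glucosinolate transporter, had direct ratios of 2.61 and 2.99, and 4.28 and 3.70 on the light arrays, against 1.56, 0.49 and 0.35 on the dark arrays. UGT74B1, a glucosyltransferase of the glucosinolate core, had direct ratios of 1.68 and 2.84 and stood at 3.04 and 3.01 in light, against 0.98, 0.93 and 0.72 in the dark. BCAT4, the aminotransferase that starts the methionine-derived chain, changed by 1.68 ± 0.48 and 2.0 ± 0.62 (SE, adjusted p = 0.014 and 0.036, limma). SIR, the sulfite reductase that makes sulfide for cysteine, changed by 1.01 ± 0.26 and 1.37 ± 0.33.

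Glutathione and glycosyl transferases, enzymes that tag small molecules, were divided. Of 14 tested in both routes, 3 were called higher and 1 lower, against 6.47% and 2.14% of all named genes tested. UGT76E12 was among the 12 named genes highest in light, with direct ratios of 3.80 and 5.80, and 6.56 and 6.85 on the light arrays, against 0.80 and 0.49 on dark replicates 2 and 3. It had no value on dark replicate 1, so the reference change of 6.06 ± 1.09 (SE) rests on 2 dark arrays. UGT76C2, which glucosylates cytokinins, changed by 1.12 ± 0.23 and 1.11 ± 0.30. GSTU26 was lower, with direct ratios of -1.99 and -2.01, and 0.55 and 0.20 on the light arrays, against 3.10, 2.16 and 2.06 on the dark arrays, and the change was -2.07 through the reference. Its direct call was lost without either direct array (adjusted p = 0.075 and 0.082, limma), and its reference call without dark replicate 1 (adjusted p = 0.12), without light replicate 1 (0.12) or 2 (0.22) and at adjusted p under 0.01. The largest others were GSTU16, UGT72E1 and UGT78D1. GSTU16 was called lower on the direct arrays at -2.06 and -2.14, but stood at 0.83 ± 0.85 through the reference. UGT72E1 changed by -0.41 and 2.27 and UGT78D1 by 1.99 and 0.42, with no call.

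Among regulators, SPT, GI and BZIP60 changed by both routes. SPT, or SPATULA, is a basic helix-loop-helix factor that acts in germination and limits the growth of cotyledons and leaves, and it was the one called of 2 genes of light signalling. It had direct ratios of -4.21 and -3.48, and stood at -0.93 and -0.31 on the light arrays, against 0.55, 2.97 and 3.15 on the dark arrays. Dark replicate 1 was much closer to the light arrays than the other dark arrays were. The change was -3.84 ± 0.51 by the direct route and -2.85 ± 0.66 through the reference (SE, adjusted p = 1.6e-06 and 0.004, limma), and the reference call was lost when the 7 cotyledon arrays were fitted alone (adjusted p = 0.11, limma) or light replicate 1 was left out (adjusted p = 0.092, limma). CSN5B, a subunit of the signalosome that represses light responses in the dark, was not called at -0.56 and 0.21.

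GI, or GIGANTEA, the one measured clock gene, had direct ratios of -1.14 and -1.73, and -1.05 and -1.04 on the light arrays, against 0.36, -0.26 and -0.18 on the dark arrays. Its reference change of -1.02 ± 0.33 (SE, adjusted p = 0.046, limma) lay at the threshold, and the call by both routes was lost without dark replicate 1 or 3, without either light array, without direct replicate 2, with the replicate number as a block, at adjusted p under 0.01, and when the cotyledon arrays were fitted alone. GI is known to cycle over the day, and the hour at which these cotyledons were harvested is not given by the labels. BZIP60, a factor of the unfolded protein response, was higher at 1.42 ± 0.22 and 1.32 ± 0.29 (SE).

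In the dark-induced and starvation list 3 genes fell in light. Of 6 measured, these 3 were called lower by both routes and none higher, against 3.86% of named genes called lower on the direct arrays and 3.04% through the reference. AT3G15450 was put in this list by its locus code, and the lists were chosen with earlier results of these data known. These shares are therefore no test of the list. MCCA, the alpha subunit of methylcrotonyl-CoA carboxylase in leucine breakdown, had direct ratios of -1.20 and -1.65, and -4.97 and -5.14 on the light arrays, against -2.78, -3.52 and -3.86 on the dark arrays. AT3G15450 had direct ratios of -1.60 and -2.61, and -5.41 and -5.83 in light, against -3.81, -4.14 and -3.77 in the dark. AT4G33150, the bifunctional LKR/SDH enzyme of lysine breakdown, stood at -5.0 and -5.54 in light and at -3.31, -3.56 and -3.67 in the dark, but its direct arrays disagreed, at 0.20 and -2.61. The beta subunit gene MCCB, at -0.78 and -0.41, was not called, nor were IVD, an isovaleryl-CoA dehydrogenase of the same leucine pathway, at 0.04 and 1.02, and SAG29 at -0.15 and 0.33. Of the 3 calls, 1 was left without direct replicate 2 or without light replicate 2, and none when the cotyledon arrays were fitted alone.

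Further genes with a symbol were called lower outside any list, and were picked after their values were seen. FAAH, the fatty acid amide hydrolase, had direct ratios of -2.58 and -1.65, and -0.13 and -0.37 on the light arrays, against 1.80, 1.58 and 1.37 on the dark arrays. ALN, the allantoinase of purine breakdown, changed by -1.56 ± 0.34 and -1.39 ± 0.44 (SE). IAGLU, which joins glucose to the auxin indole-3-acetic acid, had direct ratios of -1.99 and -2.14, and -0.57 and -0.52 in light, against 1.16, 1.28 and 1.18 in the dark. WLIM2b, a protein that bundles actin, changed by -1.11 ± 0.25 and -1.41 ± 0.32.

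Of 2 seed reserve genes none was called by both routes. OLEO3, a coat protein of seed oil bodies, had direct ratios of -3.65 and -5.23 and was called there, with 1.84 and 1.58 on the light arrays, against 4.70 and 4.53 on dark replicates 2 and 3. It had no value on dark replicate 1, and the reference change of -2.91 ± 1.01 (SE) was not called (adjusted p = 0.075, limma). AIM1, a protein of fatty acid breakdown in peroxisomes, was not called at 0.59 and 0.51.

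Among 8 genes of dehydration, cold and late embryogenesis, KIN2 was called by both routes, and KIN1 and COR47 through the reference alone. Of all named genes tested, 6.47% were called higher by both routes and 8.25% through the reference. KIN2, a small cold-induced protein, had direct ratios of 2.01 and 0.64, and 6.56 and 6.86 on the light arrays, against 2.75, 4.61 and 4.52 on the dark arrays. Its direct change of 1.32 ± 0.45 (SE, adjusted p = 0.046, limma) lay at the threshold and the call by both routes was lost without centring, when centred on named probes, after scaling, with the cotyledon arrays fitted alone, at adjusted p under 0.01, and without either direct array or either light array. KIN1 changed by 1.09 ± 0.50 and 2.1 ± 0.65 (SE), COR47 by 0.82 ± 0.22 and 1.47 ± 0.29, and the largest of the uncalled others was LEA18 at -0.06 and 1.34.

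Of the lists of wall-loosening and class III peroxidase genes, each gave 1 call higher in light by both routes, against 6.47% of all named genes tested. In lists this small, 1 call says little about a family. Lists were matched by symbol or synonym, apart from AT3G15450 of the dark-induced list, which was listed by its locus code. Any other gene known here by its locus code alone is in no list, so a list's counts do not describe its whole family. Such genes were not sorted by family, and several of those given below were called lower in light. EXGT-A3, a xyloglucan endotransglucosylase also named XTH27, was 1 of 4 wall-loosening genes and changed by 1.04 ± 0.22 and 1.49 ± 0.29 (SE). On the direct arrays it was no longer called without centring. EXLA1 of the expansin-like family was called through the reference at 1.51 ± 0.35 but stood at 0.22 ± 0.27 on the direct arrays, and EXLA2 and XTH32 were not called. EXPB3 of this list, GSTU18 of the transferases and IAA34 of the hormone genes had too few values for 1 of the routes. PRXR1, 1 of the 3 class III peroxidases so matched, which use hydrogen peroxide in the wall, changed by 2.05 ± 0.26 and 2.07 ± 0.33, with a second probe at 1.95 and 1.84, and was no longer called through the reference when the cotyledon arrays were fitted alone (adjusted p = 0.06, limma). The other 2, AT5G64120 (PRX71) and AT5G66390 (PRX72), were not called, at 0.85 and 0.53 on the direct arrays.

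The remaining lists gave no call by both routes, which called 8.61% of all named genes tested. These were 8 tubulins and actins, 3 genes of flavonoid and carotenoid synthesis, 2 heat shock genes and 5 genes of growth hormones. On the direct arrays tubulins and actins lay between -0.90 for TUB5 and 0.20 for ACT12. The flavonoid and carotenoid list holds UGT78D1, given with the transferases, and next to it in size BAN, which makes tannin precursors, at -1.80 and 0.15. The largest changes of the last lists were -1.02 and -0.40 for ATHSP22.0, and 0.53 and 1.89 for GH3.17, which conjugates auxin. LYC, a carotenoid cyclase, IAA29 and RR16 were not called either, at 0.66, -1.0 and -0.29 on the direct arrays. A missed threshold does not show that these genes did not change: their standard errors ran from 0.23 for TUB7 on the direct arrays to 1.44 for UGT78D1 through the reference.

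Further genes with a symbol were called higher. SFP1, a sugar transporter family protein, had direct ratios of 2.82 and 2.70, and -2.80 and -2.98 on the light arrays, against -5.25, -5.33 and -5.50 on the dark arrays. OPCL1, an acyl-CoA ligase of jasmonate synthesis, changed by 2.35 ± 0.60 and 3.41 ± 0.77 (SE), and MT1C, a metallothionein that binds metal ions, by 1.96 ± 0.37 and 2.02 ± 0.48. AR781 changed by 1.65 ± 0.47 and 2.19 ± 0.61. SNF7.1, of the membrane-sorting ESCRT machinery, and MAP1D, a methionine aminopeptidase of organelles, changed by 1.09 and 1.03 on the direct arrays and by 1.27 and 1.03 through the reference.

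Genes were also ranked by the smaller of their absolute changes by the 2 routes, and the 12 highest and 12 lowest were taken. Most carry a locus code alone and are given here without a role. The highest was AT1G23130, with direct ratios of 4.62 and 5.12, and 5.53 and 6.62 on the light arrays, against 1.06, 0.34 and 0.35 on the dark arrays. AT4G27560 had direct ratios of 4.39 and 5.04, and 9.15 and 5.25 on the light arrays, which disagreed with each other, against 0.28, 1.99 and 0.96 on the dark arrays. AT5G05600 had direct ratios of 3.58 and 4.77, and 2.05 and 2.01 in light, against -3.14, -2.82 and -2.77 in the dark. AT5G38980, AT3G57020, AT4G20860, AT2G25625, AT1G65190, AT1G51090 and AT5G16010 completed this end of the ranking, with direct changes from 3.07 ± 0.31 for AT5G16010 to 4.65 ± 0.95 for AT5G38980 (SE).

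**Figure D3:**
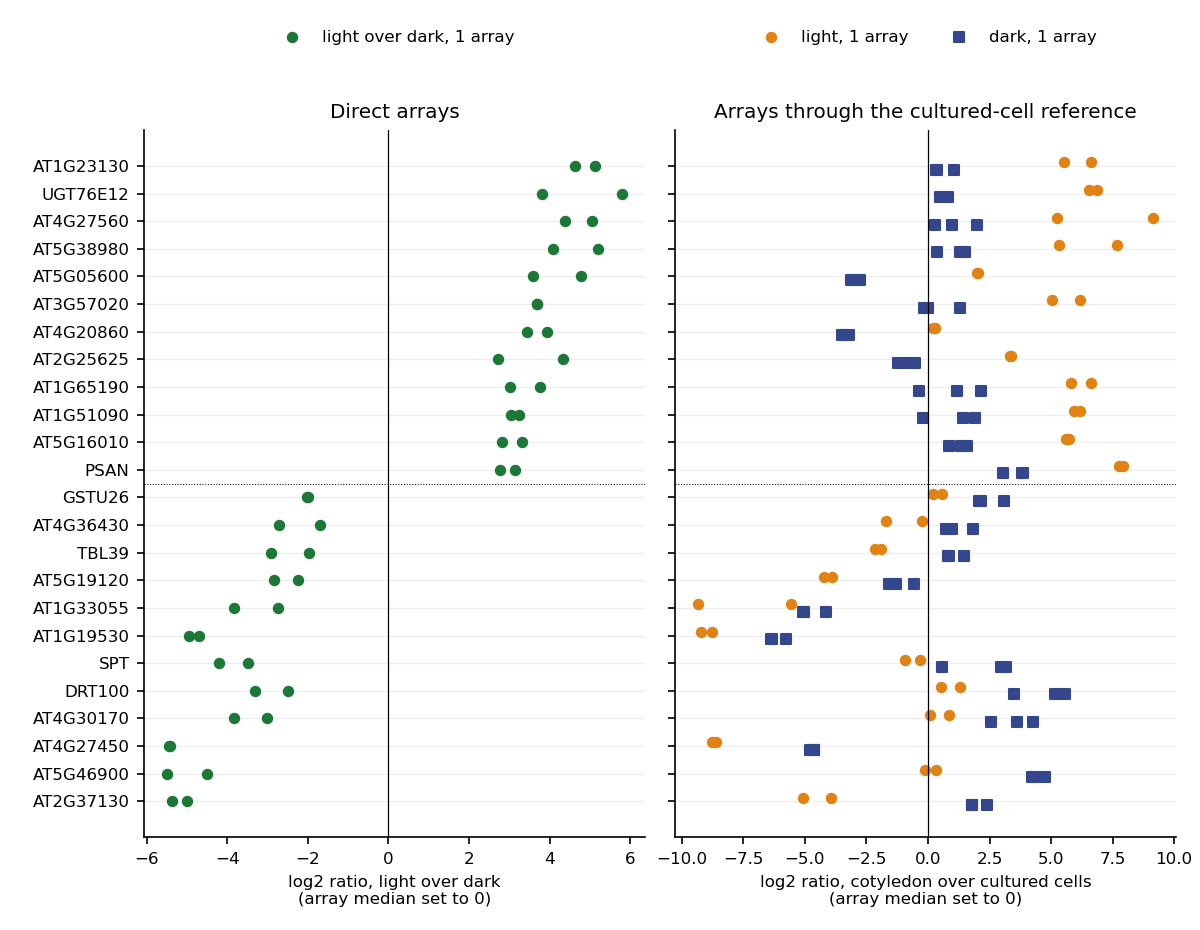
Log2 ratio on each cotyledon array for the 12 named genes highest and the 12 lowest in light by both routes, separated by the dotted line. Left, the 2 direct arrays (green), and right, the 2 light arrays (orange circles) and 3 dark arrays (blue squares) over cultured cells. Light and dark points do not overlap for any of the 24 genes, which were chosen from these values.

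AT2G37130 was the lowest gene, with direct ratios of -5.37 and -5.01, and -3.95 and -5.06 on the light arrays, against 2.38, 1.78 and 1.78 on the dark arrays. The change was -5.19 ± 0.49 by the direct route and -6.48 ± 0.63 through the reference (SE, adjusted p = 1.3e-09 and 7.2e-09, limma), and its second probe gave -5.43 ± 0.44 and -6.34 ± 0.57. AT5G46900 had direct ratios of -4.51 and -5.50, and 0.34 and -0.12 in light, against 4.76, 4.23 and 4.30 in the dark. AT4G27450 had direct ratios of -5.44 and -5.42, and -8.63 and -8.76 in light, against -4.65, -4.80 and -4.65 in the dark, so that it lay below cultured cells on all 5 of these arrays. Some genes stayed near the cultured-cell level in light and were above it in the dark, as AT5G46900 was, and others, such as AT4G27450 and AT1G19530, were below it in both.

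AT1G19530 had direct ratios of -4.95 and -4.69, and -9.21 and -8.76 in light, against -6.36, -6.33 and -5.75 in the dark, and the route difference of -1.98 ± 0.43 (SE) did not pass the adjusted test (adjusted p = 0.15, limma). None of the 7 arrays had it at the lowest ratio that the table holds, 0.001. DRT100, a leucine-rich repeat protein, had direct ratios of -2.49 and -3.31, and 1.32 and 0.52 on the light arrays, against 3.49, 5.55 and 5.15 on the dark arrays. TBL39, of the trichome birefringence-like family, had -1.97 and -2.92, and -1.90 and -2.14 in light, against 1.46, 0.86 and 0.80 in the dark. Among the rest of the 12, AT1G33055 had light values of -5.57 and -9.35 that disagreed, and its reference change of -2.72 became -0.83 without light replicate 2 (adjusted p = 0.72, limma). AT4G36430 had a reference change of -2.15 (adjusted p = 0.049, limma), the call closest to the threshold of the 24. AT4G11290, outside the 12, was called lower by both of its probes, at -4.97 and -1.19 on the direct arrays.

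Root and hypocotyl, the seedling stem, each had a like experiment of 2 direct arrays and 2 light and 2 dark arrays over cultured cells, none shared with the cotyledon arrays. The test of a difference was run against root, whose direct arrays also had light in channel 1, and the response of hypocotyl was not tested here. On 1 of the light root arrays the organ was in the other channel. Testing the difference between the cotyledon and the root response called 1481 of 24204 probes on the direct arrays (6.12%), 766 with a higher response in cotyledon (3.16%) and 715 with a lower one (2.95%). Through the reference it called 1463 of 22926 (6.38%), 431 higher (1.88%) and 1032 lower (4.5%), with the median of all probes at -0.277. Both routes called 598 of 21336 with the same sign (2.8%), 235 higher (1.1%) and 363 lower (1.7%), and 64 named genes were among them. In the first of these tests light lay in the same channel in both organs, so a dye effect common to them cancels. Here the direct count was 896 without direct cotyledon replicate 1, 761 without replicate 2 and 680 without direct root replicate 2, and the reference count was 866 and 712 without light cotyledon replicates 1 and 2, 600 without the light root array of the other channel, and 739 without dark root replicate 2.

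Probes higher in light cotyledon were more often called higher in root than probes at large. Those lower in light cotyledon were called in root in both directions, and more often lower than probes at large, chiefly through the reference. The fit gave each probe a single estimate of spread for all comparisons. A probe called in cotyledon with a small spread is therefore more easily called in any other organ of the fit. The part of this in the shares was not tested. Of 902 probes higher in light cotyledon and tested on the direct root arrays, 17.5% were called higher in root, against 4.81% of all probes, with a median of 0.42 beside -0.03 for all. Of 428 probes lower in light cotyledon, 7.24% were called lower in root, against 4.31% of all, and 6.54% were called higher, with a median of -0.04. Through the reference, 13% of 890 probes higher in light cotyledon were called higher in root, against 5.14% of all. Of 418 probes lower in light cotyledon, 9.57% were called lower in root by that route, against 1.08% of all. A further 5.74% of them were called higher, with a median of 0.04 beside 0.24 for all. Among the named genes, 20 of 108 higher in cotyledon were called higher on the direct root arrays and 1 lower, against 9.76% of all named genes called higher there and 3.25% lower, and 2 of 36 lower in cotyledon were called lower and 2 higher. In rosette leaf over cultured cells, 65.8% of 895 probes higher in light cotyledon were called higher, against 23.6% of all probes, and 40% of 432 probes lower in light cotyledon were called lower, against 18% of all.

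The 5 highest and 5 lowest differences between cotyledon and root among named genes called by both routes held 6 of the 24 genes ranked above. AT2G37130 had ratios of 0.87 and 1.28 on the direct root arrays beside -5.37 and -5.01 on the direct cotyledon arrays, and its responses differed by -6.26 ± 0.69 on the direct arrays and -5.84 ± 0.93 through the reference (SE, adjusted p = 1.5e-07 and 0.00012, limma). Over cultured cells it stood at 4.28 in light root and 4.92 in dark root, above both cotyledon groups, and at 3.09 in light hypocotyl and 6.07 in dark hypocotyl. AT5G46900 and AT4G30170 likewise fell in cotyledon, while root showed no call, at 0.53 and 0.36 on the direct arrays, and their responses differed by -5.53 ± 0.70 and -3.78 ± 0.73. In hypocotyl AT5G46900 stood at 1.91 in light and 4.75 in the dark over cultured cells. AT1G23130, UGT76E12, AT1G66090 and AT4G33720 rose in cotyledon, with root changes between -0.52 and 0.10 on the direct arrays and no call there.

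GSTU26 and AT5G26260 were called in opposite directions in the organs, and the cotyledon call of GSTU26 on the direct arrays rests on both arrays, as given above. That of AT5G26260 was lost without direct replicate 2 (adjusted p = 0.2, limma). GSTU26 was lower in light cotyledon at -2.0 ± 0.47 and higher in light root at 2.17 ± 0.47 on the direct arrays (SE, adjusted p = 0.003 and 0.002, limma), and the difference of -4.17 ± 0.67 passed the test by both routes. AT5G26260 was lower in light cotyledon at -1.64 ± 0.33 and higher in light root at 2.08 ± 0.33. AT1G09310 was called in root and not in cotyledon, at -4.67 ± 0.42 in root and 0.68 ± 0.42 in cotyledon, where light arrays at 7.34 and 8.03 and dark arrays at 7.58, 7.73 and 7.69 overlapped.

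Other genes were called in the same direction in both organs. AT3G57020 had direct ratios of 3.68 and 3.69 in cotyledon and of 3.98 and 4.85 in root, and the difference of -0.73 ± 0.50 (SE) was not called (adjusted p = 0.49, limma), which does not show that the organs responded alike. AT5G16010 changed by 3.07 ± 0.31 in cotyledon and by 2.68 in root. AT1G19530 changed by -4.82 ± 0.26 in cotyledon and -4.08 ± 0.26 in root on the direct arrays. That difference of -0.74 ± 0.37 was not called (adjusted p = 0.29, limma). Through the reference AT1G19530 changed by -2.84 ± 0.34 in cotyledon and -4.56 ± 0.37 in root. There the difference of 1.71 ± 0.50 was called (adjusted p = 0.036, limma), so the routes differed in its sign. KIN2 rose in both, by 1.32 ± 0.45 in cotyledon and 4.81 ± 0.45 in root on the direct arrays, and that difference of -3.48 ± 0.64 was called on the direct arrays (adjusted p = 0.00046) but not through the reference (-2.26 ± 0.87, adjusted p = 0.12, limma). GTR1 was called in both organs, at 2.80 ± 0.33 in cotyledon and 1.23 in root, where the direct arrays disagreed, at 0.49 and 1.96.

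**Figure D4:**
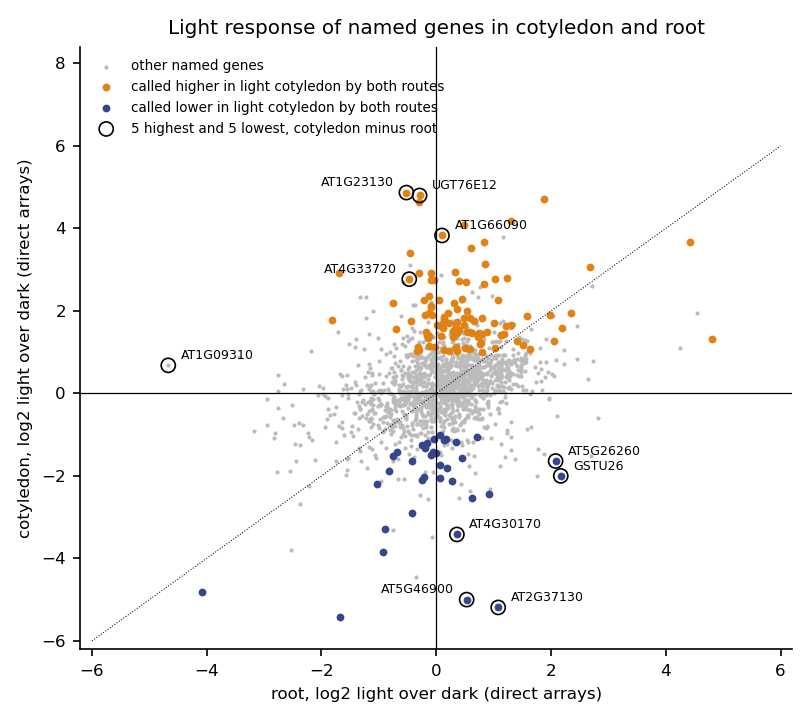
Log2 change in light over dark on the direct arrays for each named gene, in cotyledon (y axis) and in root (x axis), as means of 2 arrays each, with the dotted line marking equal changes. Genes called in cotyledon by both routes are orange (higher) or blue (lower), and rings mark the 5 highest and 5 lowest differences between organs. Of these, GSTU26 and AT5G26260 were called at opposite signs, and AT1G09310 was called in root and not in cotyledon.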

How the data were processed

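Transcript ratios of 7 cotyledon arrays were read from the deposited series table of 51 arrays, which holds log2 ratios as the authors deposited them. The 255573 values under -1 are each a whole number of thousandths once the log2 is undone (tolerance 0.01 of a thousandth), with 0.001 the lowest ratio. Scanning, background and normalization are not given in the sources used here. Of 27648 probes, the platform annotation named 2032 with 1 gene, 2029 of which matched RefSeq, used for names alone. After 153 probes of clone accessions and 23 probes that disagreed with another of their accession (correlation under 0.5) were left unnamed and 3 control accessions averaged, 27600 features remained, 1805 of them naming 1773 genes. A gene with several probes is given by the probe with the most values, then the highest median absolute ratio.

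Each array was centred on its median. limma 3.58.1 in R 4.3.3 was fitted to all 51 arrays with 1 mean per group, with two-sided p-values adjusted by Benjamini-Hochberg over all probes with at least 2 values per group compared. A call needed adjusted p under 0.05 and at least 2-fold. Genes named were the 12 highest and 12 lowest called by both routes, called list members with the largest others, and the 5 highest and 5 lowest differences from root; others with a symbol were added after their values were seen. The arrays, gene lists and rules were chosen with earlier results of these data known. The fit was tested on simulated data. Alternatives were other centring, scaling, quantile normalization, filters, thresholds, a replicate block and leaving out arrays.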

Additional observations from a re-analysis of the deposited data

Results flagged for a closer look

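The response to light differed between cotyledon and root for 1481 probes on the direct arrays and for 1463 through the reference, by a test of the difference itself. Among named genes for which both routes called that difference, the cotyledon minus root difference on the direct arrays was 5.39 for AT1G23130, 5.34 for AT1G09310, 5.09 for UGT76E12, 3.73 for AT1G66090 and 3.24 for AT4G33720. At the other end it was -6.26 for AT2G37130, -5.53 for AT5G46900, -4.17 for GSTU26, -3.78 for AT4G30170 and -3.72 for AT5G26260. Of these 10 genes, GSTU26 and AT5G26260 were called lower in light cotyledon and higher in light root on the direct arrays. AT1G09310 was called lower in light root and was not called in cotyledon. The other 7 were called in cotyledon by both routes and had no call in root. On 1 of the 2 light root arrays the organ lay in the other channel, and without that array the reference count was 600. No group of cotyledon arrays was large enough for a check of single outlying arrays.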

How the results depend on the processing

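The number of arrays sets the precision, with 2 direct, 2 light and 3 dark arrays, and the table holds ratios alone, so signal over background could not be weighed. Scaling and quantile normalization were run separately within direct arrays and within reference arrays. The counts called by the direct route, through the reference and by both routes stayed within 1.5 times of their values under the settings that kept all arrays, except that the reference count was 1238 at adjusted p under 0.01. With single arrays left out they ran from 1605 to 1764, from 1068 to 1833 and from 777 to 1264. Where this leaves 1 array in a group, that array is assumed to vary as the other groups do. The number of probes that differed between the routes was 2 without centring, 3 after quantile normalization, 0 with the cotyledon arrays fitted alone (2152 at unadjusted p under 0.05) and 1 to 46 with single arrays left out. The cotyledon minus root count through the reference was 965 without centring, where 46.9% were higher in cotyledon beside 29.5% after centring, and 2220 after scaling. With single arrays left out it ran from 600 to 1891, and on the direct arrays from 680 to 1603. The causes were not tested. Without centring, the median of all probes moved to -0.20 on the direct arrays and -0.12 through the reference.

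Light and dark arrays numbered 1 and 2 share a number only: their deviations correlated at 0.083 and 0.069, and 2 pairs cannot settle it. With the replicate block, the reference count was 1848 and the count by both routes 1137. With the cotyledon arrays fitted alone, both routes called 1085 probes, 878 of them among the 1348. For the genes named in the text, 1563 values under other settings kept their call, 167 fell short of the threshold and 1 turned: AT4G33150 on the direct arrays was 0.20 without direct replicate 2 (adjusted p = 0.92, limma) and -2.61 without direct replicate 1. Of the 24 genes ranked highest and lowest, 15 kept both calls under every setting. With a single array left out, these counts of kept calls cover only the route that used it. Leaving out dark replicate 1 for the counts of named genes and lists was chosen after seeing the data.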

Other observations

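The probes called in cotyledon were also set beside germinating seed over cultured cells. Of 870 probes higher in light cotyledon, 24.5% were called higher and 44.3% lower in germinating seed, and of 412 probes lower in light cotyledon, 28.6% were called higher and 45.9% lower. Of all 23340 probes tested there, 29.3% were called higher and 29.4% lower. Both sets were thus more often lower in germinating seed than probes at large, with medians of -0.63 and -0.67 beside 0.12, and no test of this was run.

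AT5G05600 and AT4G20860 were below cultured cells in dark cotyledon and above them in light cotyledon. AT5G05600 stood at -1.57 ± 0.16 in 3 rosette leaf arrays (SD) and at -4.11 ± 0.28 in 3 germinating seed arrays, both below its light cotyledon values of 2.05 and 2.01. These comparisons between organs were not tested.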
